A study of Rattus norvegicus with 12 samples.

Results

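The mature products of the microRNA (miRNA) genes Mir21, Mir146a, Mir146b and Mir155 were examined in the hippocampus of adult rats 3 h after a high dose of ethanol. They were taken by name: every row whose stem was rno-miR-21, rno-miR-146a, rno-miR-146b or rno-miR-155, on either arm of the hairpin, which gave 8 of the 753 mature miRNAs listed in each library. Of these 8, 6 were among the 420 miRNAs retained for testing, and the rare products rno-miR-146a-3p and rno-miR-155-3p were not. Members were chosen by their names, though with earlier results of these data known.

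The rats were male Sprague Dawley rats of postnatal day (P) 70 to 80, bred in-house per the study's methods, with no genetic modification named. Each received an intraperitoneal injection of ethanol (4 g/kg, in saline) or of vehicle, and the right hippocampus was taken 3 h later (the study's title names its dorsal portion). Small RNA of 20 to 30 nt was sequenced from 4 vehicle rats (animal numbers 9, 10, 19 and 20) and 8 ethanol rats (3, 4, 7, 8, 15, 16, 23 and 24), with 1 library per rat. The comparison asked whether these miRNAs differed between ethanol and vehicle rats.

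A miRNA is cut from a hairpin precursor, and either arm of the hairpin (5p or 3p) can be kept as the mature strand. The bases next to its 5′ end, the seed, pair with target messenger RNAs, which are then repressed. The genes of miR-146a and miR-155 are induced by NF-κB signaling in immune cells. miR-146 represses the adaptors Traf6 and Irak1 and so damps Toll-like receptor signaling, whereas miR-155 represses Socs1 and Ship1 (Inpp5d) and so favors it. miR-21 represses Pdcd4, is widely expressed, and is raised in activated glia and in many injured tissues.

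The mature sequences are shown because the seed separates these miRNAs into families and because the miR-146 pair is nearly identical. They are from RefSeq (assembly GRCr8), which held a mature sequence for 688 of the 753 listed names, all 8 members included. Each is written 5′ to 3′ with the seed, bases 2 to 8, in capitals.
rno-miR-21-5p: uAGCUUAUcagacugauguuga
rno-miR-21-3p: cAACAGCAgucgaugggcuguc
rno-miR-146a-5p: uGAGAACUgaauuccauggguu
rno-miR-146a-3p: aCCUGUGAaguucaguucuuu
rno-miR-146b-5p: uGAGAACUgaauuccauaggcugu
rno-miR-146b-3p: cCUAGGGAcucaguucuggug
rno-miR-155-5p: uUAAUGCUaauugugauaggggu
rno-miR-155-3p: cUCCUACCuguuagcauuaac
miR-146a-5p and miR-146b-5p had the same seed and the same first 17 bases. Counted from 1 at the 5′ end, with miR-146a-5p first, they differed by G18A and U21C, and miR-146b-5p was 2 bases longer. Among the 693 mature sequences searched, no other shared a seed with any of the 8 members. The 5p and 3p products of a hairpin did not share a seed either.

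The hairpins are shown to place both arms of each gene, with the mature arms in capitals and the 5p arm first.
Mir21: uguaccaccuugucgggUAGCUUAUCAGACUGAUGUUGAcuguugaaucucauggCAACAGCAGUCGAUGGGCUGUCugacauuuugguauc
Mir146a: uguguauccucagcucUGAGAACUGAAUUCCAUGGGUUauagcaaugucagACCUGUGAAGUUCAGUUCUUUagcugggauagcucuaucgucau
Mir146b: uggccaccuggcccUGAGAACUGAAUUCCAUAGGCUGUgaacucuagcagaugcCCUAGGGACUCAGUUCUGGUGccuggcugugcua
Mir155: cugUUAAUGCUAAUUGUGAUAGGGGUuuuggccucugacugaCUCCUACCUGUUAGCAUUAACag
In GRCr8, Mir21 lay at chr10:71902600-71902691 on the minus strand, overlapping no other annotated gene, with Vmp1 the nearest. Mir146a lay at chr10:28349996-28350090 on the minus strand, overlapping LOC134480673. Mir146b lay at chr1:255144860-255144947 on the plus strand, overlapping C1h10orf95. Mir155 lay at chr11:37261114-37261178 on the plus strand, overlapping its host gene Mir155hg. The submitters named build rn5 for their own processing, and the count files gave no coordinates.

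Library totals ran from 1960704 to 4917928 counts, a 2.51-fold range, with a median of 3742260 in the vehicle and 2751741 in the ethanol libraries. Levels are given in CPM, each count scaled to a common library size, with sizes set by the trimmed mean of M-values (TMM). A library with no count for a miRNA could still hold up to 0.61 to 1.53 CPM, the worth of 3 counts. The 8 members took 2.68% to 3.52% of the counts of each library, and 94.4% of those reads were miR-146b-5p. The 6 markers of forebrain neurons had a summed level of 30865 to 39266 CPM in the libraries. Most of it was miR-9a-5p, with 24307 of the vehicle mean of 36883 CPM, whereas miR-137-3p had 257 CPM.

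The most and the least abundant of the retained members differed by more than 3 orders of magnitude. miR-146b-5p stood at 30122 ± 1563 CPM in vehicle rats (SD, n = 4) and ranked 8 of the 420 retained miRNAs. miR-21-5p followed at 1530 ± 303 CPM (SD, n = 4), with rank 66. Next came miR-21-3p (78.3 ± 22 CPM), miR-146a-5p (62.6 ± 4.96 CPM), miR-155-5p (11.1 ± 2.93 CPM) and miR-146b-3p (6.45 ± 2.07 CPM), each with SD over 4 vehicle rats. All are 21 to 24 bases long, and their CPM values were set side by side without a correction for length. CPM is a share of reads, and how evenly different miRNAs were turned into reads was not tested.

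The order of levels was fixed at the top and not at the bottom. miR-146b-5p exceeded miR-21-5p in 12 of 12 libraries, with a median ratio of 17.6 (range 13.8 to 25.7). The neighbors miR-21-3p and miR-146a-5p were close, with a median ratio of 1.11 (0.894 to 1.76), and stood in this order in 11 of 12 libraries. miR-155-5p and miR-146b-3p had a median ratio of 1.92 (0.762 to 6.43) and this order in 10 of 12 libraries. For both of these pairs the lowest ratio was below 1, and their order was not tested.

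**Figure D1:**
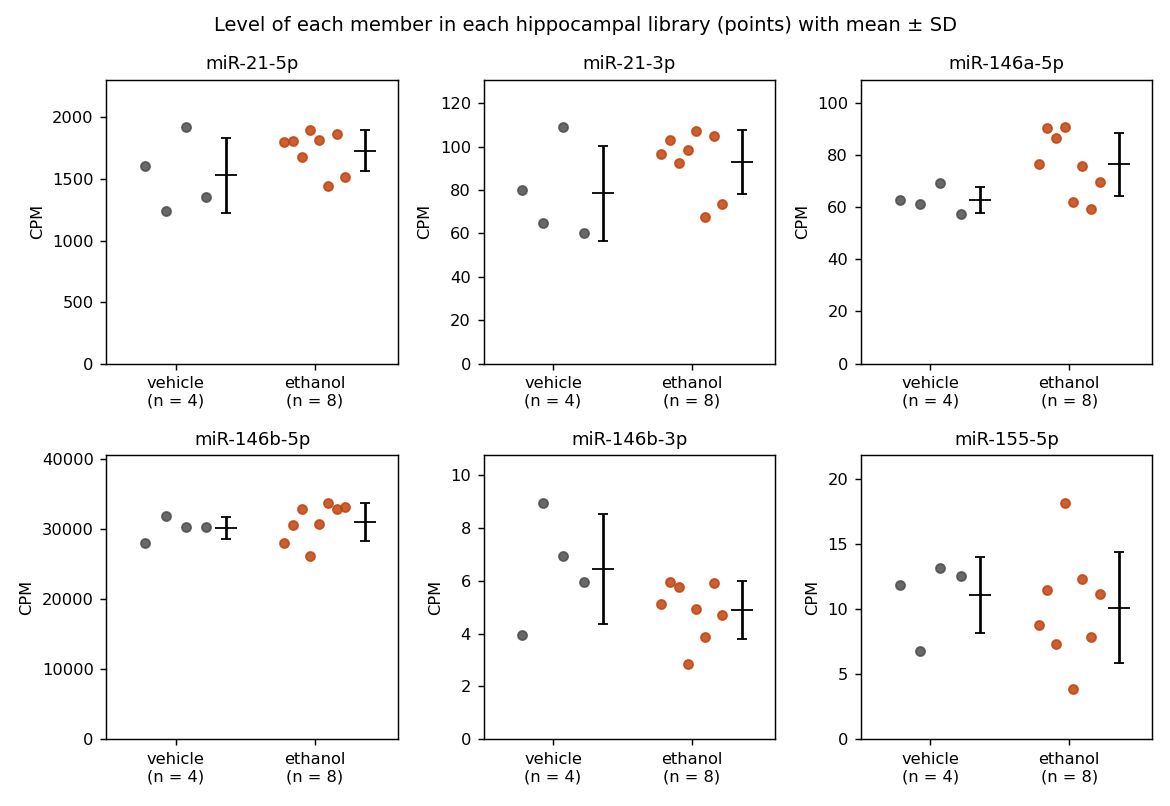
Levels of the retained members in each library, in TMM-scaled CPM on a linear axis from 0 that differs between panels, with 1 point per rat for the 4 vehicle and 8 ethanol rats and, beside the points, a horizontal mark for the group mean with bars of 1 SD. The groups overlap for every member, and 6 of 8 ethanol points for miR-146a-5p lie above the highest vehicle point.

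None of the members passed an adjusted p under 0.05 for ethanol against vehicle (adjusted p = 0.971 for all 6, from edgeR's quasi-likelihood test, adjusted by the Benjamini-Hochberg method over 420 miRNAs). The background was the same: 0% of the retained miRNAs passed, whereas 4.05% (17 of 420) had a raw p under 0.05. By other tools, limma-trend called 0 and the DESeq2 Wald test called 1, miR-133b-3p, which is no member. Among the 6 retained members, 1 (miR-146a-5p) had a raw p under 0.05, 4 stood higher and 2 lower after ethanol, and their median log2 fold change was 0.11. Over all retained miRNAs the median was -0.02, with 193 higher and 227 lower. No member had groups that did not overlap, against 0.238% of the retained miRNAs. Ethanol against vehicle is a comparison of separate rats, and in whole tissue fewer cells of a type cannot be told apart from less of the miRNA per cell.

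miR-146a-5p, the NF-κB-induced brake on Toll-like receptor signaling, had the smallest raw p among the members. Its levels were 62.7, 61.3, 69.2 and 57.2 CPM in vehicle rats 9, 10, 19 and 20. In the 8 ethanol rats the lowest was 59.4, the median 76.1 and the highest 90.6 CPM. Thus 6 of the 8 ethanol rats stood above the highest vehicle rat, and ethanol rats 15 and 23 lay within the vehicle range. Of those 6, ethanol rat 24 stood only slightly above it, at 69.6 against 69.2 CPM. The fitted log2 fold change was 0.28 ± 0.13 (SE, 1.22-fold), with a 95% interval of 0.00414 to 0.56. Its raw p in edgeR was 0.0471, rank 16 of 420, in a background of 1.67% that had a raw p under 0.05 and stood higher. The exact two-sided permutation test over the 495 assignments of rats gave p = 0.0606. With one rat left out at a time the raw edgeR p ran from 0.0175 to 0.102, being above 0.05 without vehicle rat 9, 10 or 20 or ethanol rat 4, 7, 8 or 16. With the library total as a covariate the log2 fold change was 0.19, and its raw p was above 0.05. Pearson's r of miR-146a-5p with the library total was -0.56 over 12 libraries (permutation p = 0.0587, adjusted 0.289). Within the 8 ethanol rats it was -0.73 (exact permutation p = 0.0458, not adjusted), so higher levels went with smaller libraries there.

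Reads of miR-146a-5p and miR-146b-5p can be told apart by their last bases alone. Both had counts that were not whole numbers in 12 of 12 libraries, so some reads were counted in part in the deposited files, and how many was not given. miR-21-5p, which shares its seed with no other of the 693 mature sequences searched, also had such counts in 8 libraries, and the other members had none. The count of the rarer miR-146a-5p is uncertain to that extent. miR-146a-5p made up 0.208 ± 0.0206% of the reads of the pair in vehicle rats (SD, n = 4) and 0.248 ± 0.055% in ethanol rats (SD, n = 8). These shares, which do not depend on how libraries were scaled, ran from 0.188% to 0.228% and from 0.18% to 0.345%, and the groups overlapped (exact two-sided permutation p = 0.202). The highest share was that of ethanol rat 8.

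miR-146b-5p, which has the same seed, differed between the groups by less than its error. The vehicle rats 9, 10, 19 and 20 had 28053, 31850, 30269 and 30318 CPM. The ethanol rats had 26178 at the lowest, 31832 at the median and 33783 CPM at the highest, so that the vehicle values lay within the ethanol range. The log2 fold change was 0.04 ± 0.08 (SE), with a 95% interval of the fold from 0.921 to 1.15 (exact permutation p = 0.586). Since this member carried nearly all reads of the seed GAGAACU, the sum of both miRNAs was 30185 ± 1562 CPM in vehicle (SD, n = 4) and 31123 ± 2704 CPM in ethanol rats (SD, n = 8), a log2 difference of 0.04 (exact permutation p = 0.576).

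miR-21-5p, the abundant strand of Mir21, had 1603, 1238, 1922 and 1356 CPM in vehicle rats 9, 10, 19 and 20. Ethanol rats ran from 1446 through a median of 1807 to 1900 CPM. The highest and the lowest values of all 12 libraries were both of vehicle rats, 19 and 10. The log2 fold change was 0.18 ± 0.11 (SE), with a 95% interval of the fold from 0.953 to 1.34 (exact permutation p = 0.143). It was 0.31 without vehicle rat 19, with a raw p in edgeR of 0.0131 and an adjusted p of 0.718, and 0.09 without vehicle rat 10.

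miR-21-3p, the minor strand, showed a like pattern at a lower level. Vehicle rats 9, 10, 19 and 20 had 79.9, 64.7, 109 and 60 CPM, and ethanol rats 67.8 at the lowest, 97.3 at the median and 107 at the highest. Here too vehicle rat 19 was the highest of all, and every ethanol value lay within the vehicle range. The log2 fold change was 0.24 ± 0.17 (SE), 95% interval -0.13 to 0.61 (exact permutation p = 0.166). Without vehicle rat 19 it was 0.45, with a raw p in edgeR of 0.0164 and an adjusted p of 0.718, and without vehicle rat 10 it was 0.16.

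miR-155-5p, the pro-inflammatory member, had few reads, 14 to 63 per library. Vehicle rats 9, 10, 19 and 20 had 11.9, 6.81, 13.2 and 12.6 CPM, and ethanol rats 3.84 at the lowest, 9.98 at the median and 18.2 at the highest. Vehicle rat 10 was far below the other vehicle rats, and both the lowest and the highest library were of the ethanol group (rats 15 and 8). The log2 fold change was -0.17 ± 0.31 (SE), with a 95% interval of the fold from 0.56 to 1.4 (exact permutation p = 0.58), so a change within those bounds could not be told from none. Its coefficient of variation was 26.3% in vehicle and 42% in ethanol rats, against 17.5% from counting alone. The direction was not stable: the log2 fold change was 0.06 when all libraries were thinned to the smallest.

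miR-146b-3p, the minor strand of Mir146b, had 7 to 33 reads per library. Its levels were 3.96, 8.94, 6.94 and 5.96 CPM in vehicle rats 9, 10, 19 and 20, and 2.83, 5.02 and 5.96 CPM at the lowest, median and highest of the ethanol rats. All 8 ethanol rats lay below the vehicle mean of 6.45 CPM, and vehicle rat 9 lay below most of them. The log2 fold change was -0.39 ± 0.23 (SE), 95% interval -0.88 to 0.10 (exact permutation p = 0.162), and it moved to -0.23 without vehicle rat 10. Without vehicle rat 9 it was -0.54, with a raw p in edgeR of 0.033 and an adjusted p of 0.996.

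**Figure D2:**
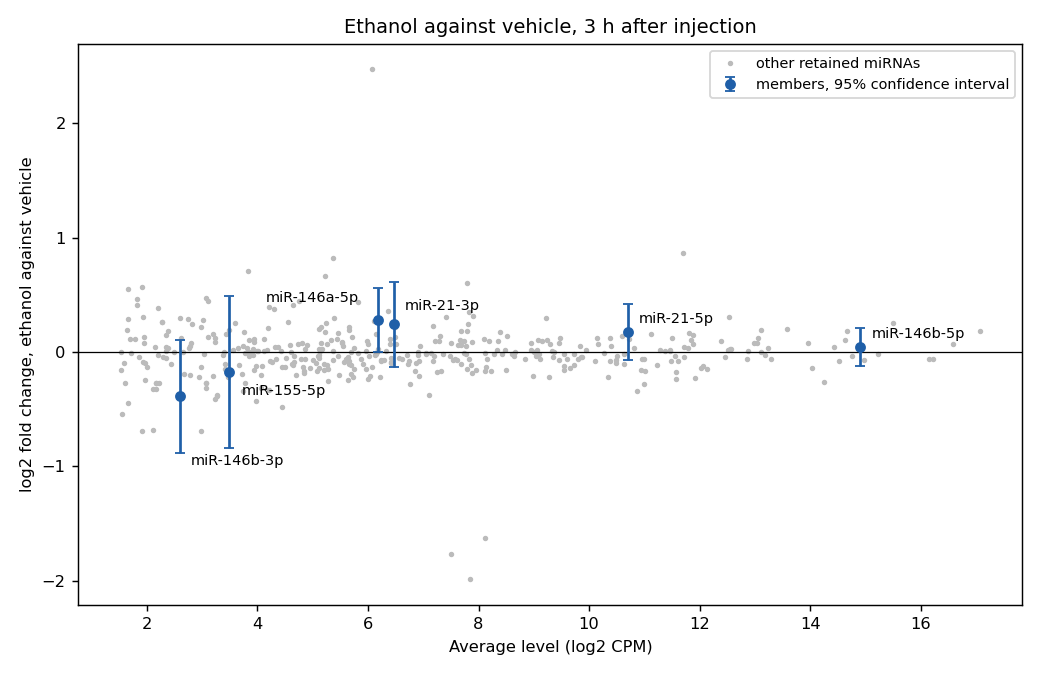
Log2 fold change of ethanol against vehicle (edgeR, vertical axis) against mean level (log scale, horizontal axis) for the 420 retained miRNAs in grey, with the 6 retained members marked and their 95% intervals drawn. Only the interval of miR-146a-5p, from 0.00414 to 0.56, lies above 0.

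For each hairpin the 5p arm held most of the reads, and the degree of dominance differed between genes. Over the 12 libraries, the 5p arm made up 94.99% of 64106 miR-21 reads (Wilson 95% interval 94.81% to 95.15%, counting error alone), or 18.9 reads per read of the 3p arm. For miR-146b it was 99.98% of 1127790 reads, and for miR-146a 99.84% of 2561 reads. miR-146a-3p had 4 reads in all and was at 0 in 9 libraries. miR-155-3p was at 0 in 12 of 12 libraries: 0 of 390 miR-155 reads. By the worth of 3 counts this allows a share of up to 0.769%. The Wilson 95% interval of the 5p share began at 99.02%.

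The arm shares did not differ detectably between ethanol and vehicle rats. For miR-21 the 5p share was 95.17 ± 0.465% in vehicle (SD, n = 4) and 94.93 ± 0.376% in ethanol rats (SD, n = 8), with an exact permutation p of 0.339 (0.339 after Benjamini-Hochberg adjustment over 3 hairpins). The exact permutation p was 0.164 for miR-146a (adjusted 0.245). For miR-146b it was 0.0566 (adjusted 0.17), with a 5p share higher by 0.00549 percentage points in ethanol rats. Without vehicle rat 9 that difference was 0.00785 points, with an exact permutation p of 0.00606. That p was not adjusted and is the smallest possible with this rat left out. The 3p arm of miR-146b had 200 reads in the 12 libraries together.

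The members were then compared with each other across the 12 libraries on the log2 CPM scale, in 15 pairs. The arms of Mir21 moved together: Pearson's r was 0.96 (permutation p = 2e-05, adjusted 0.0003) and Spearman's rho 0.94 (permutation p = 1e-05, the smallest that the permutations can give, adjusted 0.00015). Without the 2 libraries farthest from the median of miR-21-5p, r was 0.96. It was 0.95 within the 8 ethanol rats alone (exact permutation p = 0.00203) and 0.95 with group means removed. Reads of both strands came from the same libraries, and their levels were scaled for depth. With the library total, r was 0.04 for miR-21-5p and -0.06 for miR-21-3p.

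No other pair passed the adjustment by either coefficient. Of the 15 values of r, 6 were positive, and they ran from -0.43 to 0.96. miR-146a-5p and miR-146b-5p, which share a seed but lie on different chromosomes, had r = -0.22 (permutation p = 0.493) and rho = -0.14, and r was 0.20 without the 2 farthest libraries.

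**Figure D3:**
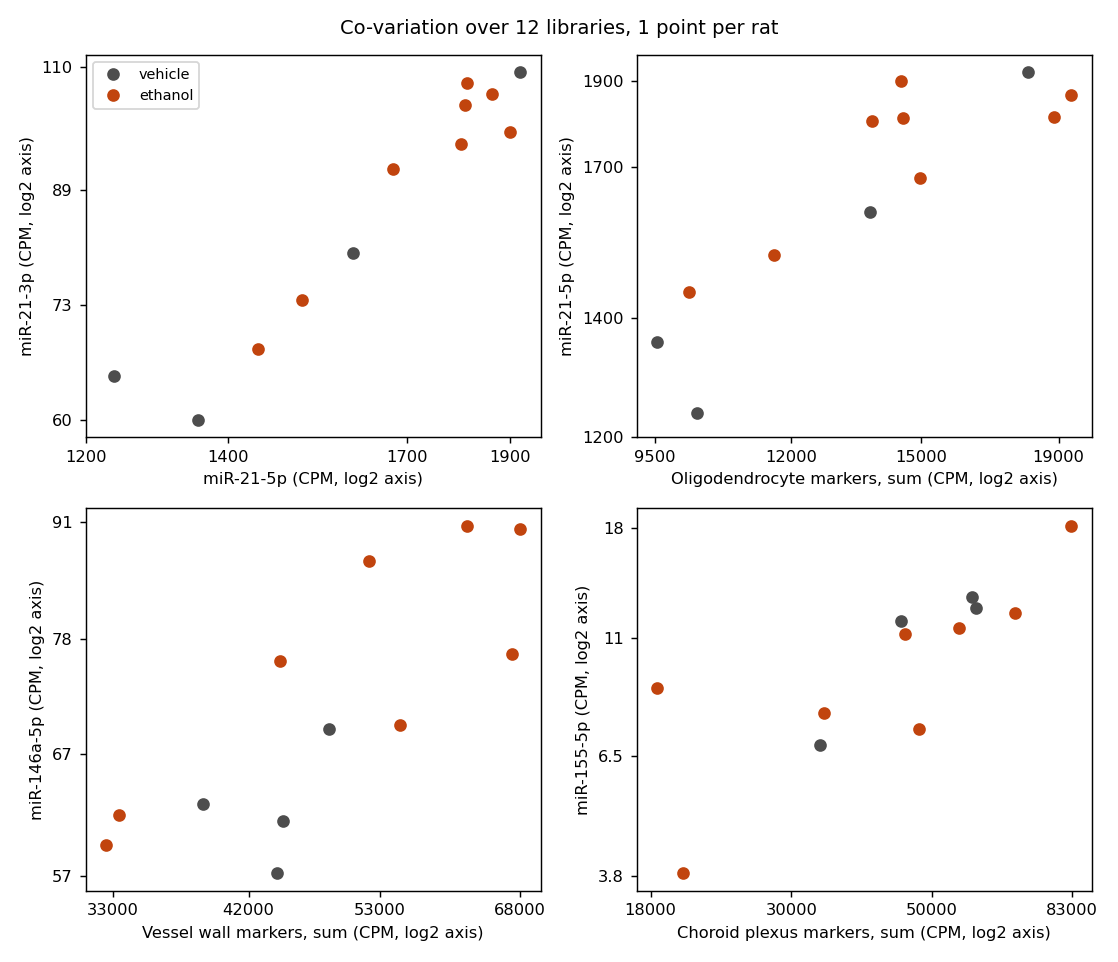
Pairs of levels in the 12 libraries, in CPM on log2 axes, with 1 point per rat (vehicle grey, ethanol orange): miR-21-3p against miR-21-5p (r = 0.96), miR-21-5p against the summed oligodendrocyte markers (r = 0.88), miR-146a-5p against the summed vessel wall markers (r = 0.79) and miR-155-5p against the summed choroid plexus markers (r = 0.80). For miR-21-5p, vehicle rats 10 and 20 lie below every ethanol rat and vehicle rat 19 above every one. Vehicle rat 20 has the lowest miR-146a-5p. In the choroid plexus panel all vehicle points lie within the ethanol range.

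**Figure D4:**
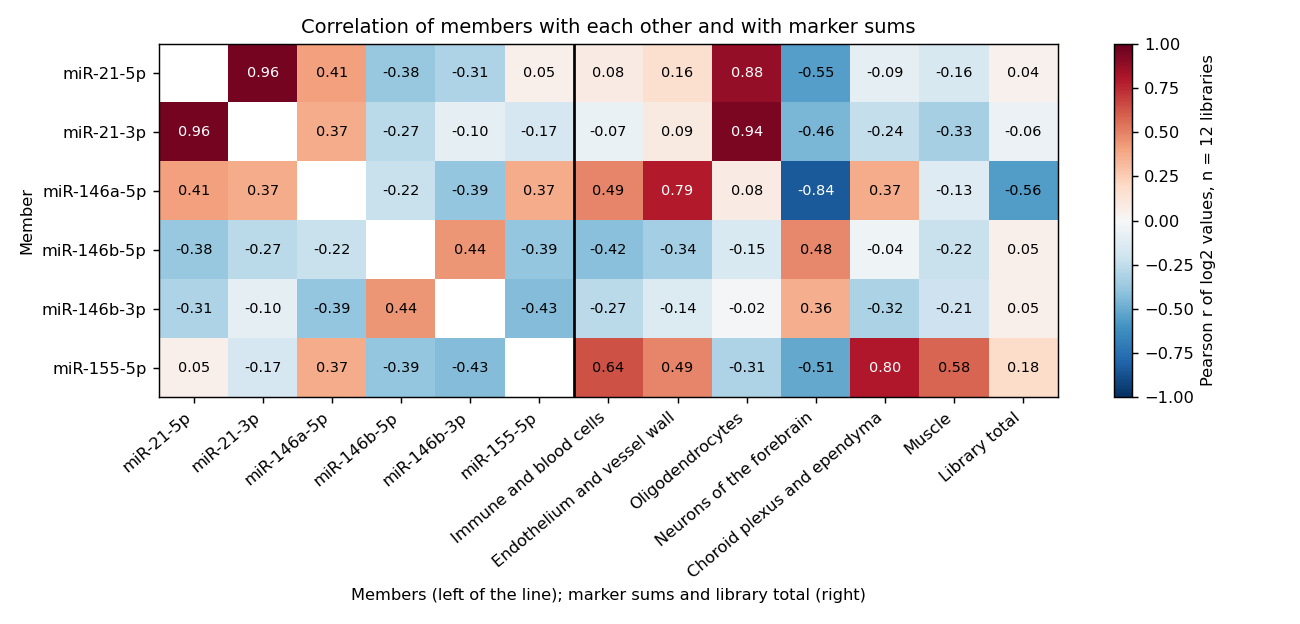
Pearson's r across the 12 libraries, as a color scale from -1 to 1 with the value in each cell, for the retained members with each other, with the summed level of each cell type marker list and with the library total. High values pair miR-21-5p and miR-21-3p with each other and with the oligodendrocyte markers.

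The levels of 4 members were correlated with those of miRNAs known as markers of particular cell types. These 42 relations (6 marker sums and the library total, each against 6 members) were computed after the members' values had been seen, and 5 passed the adjustment by both coefficients. miR-21-5p was correlated with the summed oligodendrocyte markers, 4 products of miR-219a and miR-338, which promote the maturation of myelinating cells (r = 0.88, permutation p = 9e-05, adjusted 0.00189, and rho = 0.85, adjusted 0.0193). Without the 2 farthest libraries r was 0.83, and within the 8 ethanol rats it was 0.81 (exact permutation p = 0.0188). miR-21-3p did the same (r = 0.94, adjusted permutation p = 0.00042, rho = 0.92, adjusted 0.00336, and r = 0.90 without the 2 farthest libraries). Each of the 4 markers on its own gave a rho of 0.85 to 0.93 with miR-21-5p.

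The summed oligodendrocyte level itself ran from 9542 to 18018 CPM in vehicle and from 10080 to 19408 CPM in ethanol rats (exact permutation p = 0.341). Vehicle rat 19, which held the highest miR-21 levels, was also the highest vehicle rat for these markers. With the marker sum as a covariate, the log2 fold change of miR-21-5p was 0.09 rather than 0.18, and that of miR-21-3p 0.10 rather than 0.24. The part of myelin-rich tissue in the miR-21 values was not tested beyond this.

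miR-146a-5p was correlated with the vessel wall markers, which include miR-143-3p and miR-145-3p of smooth muscle and miR-126a-5p of endothelium (r = 0.79, permutation p = 0.00316, adjusted 0.0265, and rho = 0.81, adjusted 0.022). Without the 2 farthest libraries r was 0.74, and within the ethanol rats it was 0.83 (exact permutation p = 0.014). It was inversely correlated with the forebrain neuron markers (r = -0.84, adjusted permutation p = 0.00714, rho = -0.79, adjusted 0.022, and r = -0.66 without the 2 farthest libraries). The single neuron markers had rho of -0.80 (miR-9a-5p) to -0.45 (miR-137-3p) with it. Of the vehicle mean of 36883 CPM of the neuron sum, miR-9a-5p alone held 24307 CPM. The vessel wall sum was 38709 to 48403 CPM in vehicle and 32615 to 67999 CPM in ethanol rats, with both extremes in the ethanol group (exact permutation p = 0.4). Of its vehicle mean of 43988 CPM, miR-143-3p alone held 41146 CPM, so the sum mostly followed that miRNA.

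Fitted beside the vessel wall sum, the log2 fold change of miR-146a-5p after ethanol was 0.19, and beside the neuron sum it was 0.15, with a raw p above 0.05 in both. Beside the oligodendrocyte sum it was 0.29, also with a raw p above 0.05. Its raw p in edgeR stayed under 0.05 beside the immune and blood cell sum (0.27, p of 0.0393), the choroid plexus sum (0.31, p of 0.0209) and the muscle sum (0.35, p of 0.0438). The single vessel wall markers had rho of 0.43 (miR-126a-5p of endothelium) to 0.81 (miR-143-3p) with miR-146a-5p. Among the 7 immune and blood cell markers, the lymphocyte miRNA miR-150-5p had the highest rho with it, 0.74, and miR-142-3p, found across blood cell lineages, the lowest, 0.10.

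miR-155-5p was correlated with the choroid plexus and ependyma markers, such as miR-34b-5p, miR-449a-5p and miR-204-5p (r = 0.80, permutation p = 0.00122, adjusted 0.0128, and rho = 0.82, adjusted 0.022). Without the 2 farthest libraries r was 0.86, and within the ethanol rats it was 0.79 (exact permutation p = 0.0176). That sum ran from 33258 to 58699 CPM in vehicle and from 18439 to 82749 CPM in ethanol rats (exact permutation p = 0.651), and ethanol rat 8 was the highest both for it and for miR-155-5p. Of the vehicle mean of 48625 CPM of the choroid plexus sum, miR-204-5p alone held 33357 CPM. The 6 retained markers on their own had rho of 0.47 (miR-449a-5p) to 0.89 (miR-34b-5p) with miR-155-5p. With muscle markers rho was 0.80 (adjusted permutation p = 0.022) but r 0.58 (adjusted 0.256). The muscle sum was the least balanced between the groups, at 1301 ± 784 CPM in vehicle (SD, n = 4, range 128 to 1766) and 382 ± 542 CPM in ethanol rats (SD, n = 8, range 112 to 1712), with an exact permutation p of 0.0848. Vehicle rats 9, 19 and 20 and ethanol rat 16 stood at 1626 CPM or more, and the other 8 rats at 290 CPM or less. Beside that sum as a covariate, miR-155-5p had a log2 fold change of 0.30 rather than -0.17, and miR-146b-3p one of -0.71 rather than -0.39, with a raw p in edgeR of 0.0147 and an adjusted p of 0.799 for the latter. Beside the choroid plexus, vessel wall and neuron sums the log2 fold changes for miR-155-5p were -0.07, -0.37 and -0.42. With immune and blood cell markers, r was 0.64 for miR-155-5p (adjusted permutation p = 0.179). The part of tissue other than hippocampal neurons in these levels was not tested.

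Over the 420 retained miRNAs, those with a pattern most like a member's across the 12 libraries were named by Spearman's rho, among 310 or 311 candidates per member with a mean of at least 50 counts. These are descriptions without a test. For miR-21-5p they were miR-21-3p (rho 0.94), miR-93-5p (0.94) and miR-219a-5p (0.93). For miR-146a-5p they were miR-351-5p (0.85), miR-592 (0.82) and miR-143-3p (0.81), and for miR-146b-5p they were let-7a-5p (0.84), miR-409a-3p (0.71) and miR-539-5p (0.69). For miR-155-5p they were miR-24-2-5p (0.94), miR-378a-3p (0.92) and miR-378b (0.90).

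The other miRNAs linked with inflammation were set beside the members as a list of 28 names, of which 27 were retained and miR-147 was not. Of these 27, 13 stood higher and 14 lower after ethanol, with a median log2 fold change of -0.01, and 0 had a raw edgeR p under 0.05. The smallest raw p values in edgeR were those of miR-101a-3p and miR-29b-3p. miR-101a-3p stood at 3299 ± 147 CPM in vehicle and 3699 ± 356 CPM in ethanol rats (SD, n = 4 and 8), a log2 fold change of 0.17 (exact permutation p = 0.0606). miR-29b-3p, which targets collagen messenger RNAs, stood at 81.1 ± 3.7 and 70 ± 8.8 CPM (SD, n = 4 and 8), a log2 fold change of -0.21 (exact permutation p = 0.0404, not adjusted). The immune and blood cell markers summed to 923 to 1088 CPM in vehicle and 806 to 1404 CPM in ethanol rats (exact permutation p = 0.855), and all 7 that were listed were detected.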

How the data were processed

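Hippocampal small RNA libraries of 4 vehicle and 8 ethanol rats were analysed, grouped by their labels, and the study's design named 8 rats per group. The authors deposited 1 file of estimated counts per mature miRNA and library; per the submitters' processing notes, cutadapt, Partek and build rn5 were used (versions not given in the sources used here). Which reads were divided between features is not given in the sources used here. Counts were rounded to whole numbers, and a miRNA was left out when at least 10 libraries held fewer than 10 reads of it, following the study's stated filter. Ethanol was compared with vehicle by the quasi-likelihood test of edgeR 4.0.16 in R 4.3.3 (TMM scaling, no covariates), with Benjamini-Hochberg adjustment over 420 miRNAs. Log2 CPM used a prior count of 2. Single values were compared by a two-sided exact permutation test over 495 assignments (smallest possible p 0.00202), in Python 3.11.15 with scipy 1.17.1. With a rat left out there were fewer assignments and the smallest possible p was larger. Correlations used 100000 permutations, or all of them within the 8 ethanol rats. DESeq2 1.42.0 and limma 3.58.1 were alternatives, beside other scalings, filters, covariates, thinning and leaving out each rat. Scripts were tested on simulated data. Wilson intervals and floors cover counting error only, whereas the intervals of fold changes include the spread between rats. Reads carried no molecular identifiers. The files differ 2.51-fold in depth.

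The members, the marker lists and the inflammation-linked list were chosen with earlier results of these data known. Named beside the members were the 3 miRNAs with the highest Spearman's rho for each retained 5p member (mean of at least 50 counts) and, of the inflammation-linked list, those with a raw p under 0.05 or otherwise the 2 with the smallest. miR-486 had no row of that name, and miR-200a-3p, miR-200b-3p, miR-429, miR-1-3p and miR-206-3p were not retained. Per the study's methods at most 1 or 2 pups per litter entered a condition, and litters are not given in the labels. Libraries were sequenced in sets of 8, and the set of each library is not given in the labels, so sets were not compared.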

Additional observations from a re-analysis of the deposited data

Results flagged for a closer look

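Over 12 measures in 2 groups each, 24 groups were searched for a single rat far from the others, and 2 held one. A rate of 1 in 20 would give 1.2. The measures were not independent, since several rest on the same reads, so the count of 2 was not tested against chance. For miR-155-5p, vehicle rat 10 lay at 2.90 log2 CPM and the other vehicle rats at 3.65 to 3.80, so that its gap was 0.835 of the range of the group. For the 5p share of miR-146a, ethanol rat 4 had 99.53% and the other ethanol rats 100%, so that its gap was 1, the whole range. That gap rests on very few reads, since miR-146a-3p had 4 reads in the 12 libraries together.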

How the results depend on the processing

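No member passed an adjusted p under 0.05 in edgeR, limma or DESeq2 under any alternative run, the covariates for marker sums, added after seeing the data, included. No paired analysis was possible because no animal number is shared between the vehicle and ethanol rats. The fold changes of miR-21-5p, miR-21-3p, miR-146a-5p, miR-146b-5p and miR-146b-3p kept their direction in every alternative that gave a value, and miR-146b-3p gave none where 10 reads were required in all 12 libraries. That of miR-155-5p turned to 0.06 with thinned libraries and to 0.30 beside the muscle sum. The cause was not tested. With one rat left out, log2 fold changes ran from 0.09 to 0.31 for miR-21-5p, 0.16 to 0.45 for miR-21-3p, 0.24 to 0.33 for miR-146a-5p, 0.02 to 0.10 for miR-146b-5p, -0.54 to -0.23 for miR-146b-3p and -0.34 to -0.04 for miR-155-5p. The count of retained miRNAs at an adjusted p under 0.05 was 0 in edgeR, 1 in DESeq2 and 0 to 3 with one rat left out (3 without ethanol rat 16: miR-1b and both miR-133 3p products). The count at a raw p under 0.05 was 17, 11 with the library total as a covariate, and 5 to 24 with one rat left out. The 5p share of miR-146b was higher after ethanol by 0.0032 to 0.00785 percentage points with one rat left out, being past 0.05 without vehicle rat 9 (exact permutation p = 0.00606) or ethanol rat 4 (0.0485), neither adjusted. Among the 15 pairs, only the miR-21 arms passed in every alternative. Pairs far from the threshold changed sign: miR-21-5p with miR-146b-3p had r = 0.10 in ethanol rats and 0.31 without the 2 farthest libraries; miR-21-5p with miR-155-5p had -0.08 with library totals, -0.15 in ethanol rats and -0.08 without 2; miR-21-3p with miR-146a-5p had -0.06 in ethanol rats; miR-21-3p with miR-146b-3p had 0.11 with group means removed, 0.33 in ethanol rats and 0.48 without 2; miR-146a-5p with miR-146b-5p had 0.20 and miR-146b-3p with miR-155-5p 0.01 without 2. miR-155-5p and miR-146b-3p had the fewest reads, 14 and 7 in their lowest libraries.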

Other observations

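A single retained miRNA of the 420, miR-185-5p, had groups that did not overlap, with a log2 fold change of -0.17 after ethanol. It was named after its values were seen, and 0.238% is the share of miRNAs with that property.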
